A study of Homo sapiens with 12 samples.

Results

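The prostaglandin genes described here are 10 genes of prostaglandin synthesis, sensing and breakdown, taken by symbol from a table of raw read counts for 57500 genes. They comprise the cyclooxygenases PTGS1 and PTGS2, the prostaglandin E synthases PTGES, PTGES2 and PTGES3, the prostacyclin synthase PTGIS, the receptors PTGER2, PTGER4 and PTGFR, and the prostaglandin-degrading dehydrogenase HPGD. Each symbol occurred in 1 row of the table. Of the 10 genes, 8 passed the filter on low counts, as did 16251 of all 57500 genes. HPGD had 0 counts in each of the 12 libraries, and PTGIS had at most 3 counts in any library, so neither was tested.

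The libraries came from MRC5 cells, an established line of human lung fibroblasts derived from fetal tissue, and fell into 4 groups of 3. Proliferative cells were neither irradiated nor given an inhibitor. Sen(IR) cells received 20 Gy of X-rays, Sen(IR+UK5099) cells the same dose followed by UK5099 at 100 µM, a blocker of the mitochondrial pyruvate carrier, and Sen(IR+CTPI2) cells the same dose followed by CTPI2, an inhibitor of the mitochondrial citrate carrier SLC25A1. Per the methods, inhibitors were added 1 day after irradiation and kept in the medium, and irradiated cells were collected 10 to 12 days after irradiation. The methods give 15 and 30 µM for CTPI2 without saying which dose was sequenced, and the sources used here do not say whether Sen(IR) cells received a vehicle. All groups are a single cell line. The figure legends describe the sequenced samples as independent experiments or independent conditions, and the labels do not say whether the libraries of a group came from separate cultures, so the p-values measure the spread between these libraries, part of which may be technical. The comparisons asked how irradiation-induced senescence, and then each carrier inhibitor within it, changed the transcripts. Because the RNA is from bulk cultures, fewer cells of a type and less RNA per cell cannot be told apart.

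Prostaglandins are short-lived lipid messengers. Phospholipases free arachidonic acid from membranes, the cyclooxygenases PTGS1 (the largely constitutive COX-1) and PTGS2 (the inducible COX-2) convert it to prostaglandin H2, and dedicated synthases turn that intermediate into prostaglandin E2, prostacyclin, prostaglandin F2α and others. The products act on G-protein-coupled receptors of the same or nearby cells and are inactivated by HPGD after uptake. In lung fibroblasts prostaglandin E2 is best known as a brake on proliferation and collagen production, through receptors that raise cyclic AMP, and it is a known secreted product of senescent cells.

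The libraries held between 20597736 and 28245693 counts assigned to genes. At these depths the limit that a count of 0 allows, 3 counts per library, corresponds to 0.111 to 0.147 CPM, an allowance for counting error only. Here CPM are counts per 1000000 counts after TMM scaling of library size, and a gene was called where edgeR's quasi-likelihood test gave a Benjamini-Hochberg adjusted p under 0.05 over all 16251 genes together with an absolute log2 fold change over 0.5. All 10 fibroblast markers were present in every group, with a summed level of 21364 to 25402 CPM in Proliferative, 20693 to 21279 in Sen(IR), 18265 to 20052 in Sen(IR+CTPI2) and 10908 to 11400 in Sen(IR+UK5099). The summed epithelial, endothelial and leukocyte markers, 6 each, never exceeded 2.15, 1.94 and 2.3 CPM in a library. Of the epithelial markers KRT5, KRT14 and ESRP1 stayed at or under 3 counts in every library, as did CD3E of the leukocyte markers and TIE1 of the endothelial markers. Smooth muscle markers, which fibroblasts also express in part, summed to 37.7 to 195 CPM. MKI67, a proliferation gene, averaged 235 ± 32.3 CPM (SD, n = 3) in Proliferative and 11 ± 1.65 CPM (SD, n = 3) in Sen(IR), while CDKN1A, which encodes the cell cycle inhibitor p21, averaged 315 ± 24.6 and 1055 ± 16.2 CPM (SD, n = 3 each). Mitochondrially encoded transcripts took 2.36% to 2.68% of counts in Proliferative, 2.78% to 3.21% in Sen(IR), 2.39% to 3.28% in Sen(IR+CTPI2) and 3.81% to 4.23% in Sen(IR+UK5099).

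The sequences around the start sites of 3 members show how differently built these promoters are, and they are shown because the genes behind them include the largest rise (PTGS2), a synthase that moved in the same directions (PTGES), and the receptor that was lowest with UK5099 relative to both Sen(IR) and Proliferative (PTGER4). Each window runs from 250 bases before to 50 bases after a RefSeq start site on GRCh38.p14 and is written on the gene's own strand. Capitals mark matches, on either strand, to a TATA box (TATAAA), the core of a cyclic AMP response element (TGACG), an AP-1 site (TGANTCA, with C or G at N), a CCAAT box, named for its letters, or the NF-kB pattern, and to a GC box, for which the letters searched were GGGCGG. E-boxes (CANNTG) were also searched and are not in capitals. The windows are chr1:186680374-186680673 on the minus strand for PTGS2, chr9:129752993-129753292 on the minus strand for PTGES, and chr5:40679665-40679964 on the plus strand for PTGER4.
PTGS2: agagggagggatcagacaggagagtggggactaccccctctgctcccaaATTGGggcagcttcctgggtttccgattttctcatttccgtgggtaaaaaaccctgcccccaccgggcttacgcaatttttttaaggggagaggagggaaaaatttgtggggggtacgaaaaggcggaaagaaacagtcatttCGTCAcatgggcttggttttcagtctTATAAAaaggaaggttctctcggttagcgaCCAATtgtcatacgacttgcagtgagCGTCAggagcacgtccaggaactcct
PTGES: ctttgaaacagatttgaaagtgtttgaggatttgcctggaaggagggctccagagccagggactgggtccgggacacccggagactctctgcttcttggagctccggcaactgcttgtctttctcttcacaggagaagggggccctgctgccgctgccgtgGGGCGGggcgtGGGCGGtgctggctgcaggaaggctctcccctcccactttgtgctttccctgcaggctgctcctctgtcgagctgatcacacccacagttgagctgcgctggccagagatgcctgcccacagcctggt
PTGER4: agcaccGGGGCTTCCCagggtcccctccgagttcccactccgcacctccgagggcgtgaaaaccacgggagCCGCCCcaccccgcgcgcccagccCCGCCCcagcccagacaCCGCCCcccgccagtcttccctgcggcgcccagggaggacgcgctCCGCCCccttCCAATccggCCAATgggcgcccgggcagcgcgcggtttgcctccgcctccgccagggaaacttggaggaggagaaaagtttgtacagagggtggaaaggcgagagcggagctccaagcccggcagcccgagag

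In the PTGS2 window a TATA box began 32 bases before the start. Cores of the cyclic AMP response element began 58 bases before it and at base 25 counted from it, the first of them overlapping an E-box. CCAAT boxes began 201 and 2 bases before the start, and the window held no GC box and no match to the NF-kB pattern searched. The search required every letter of a pattern, so a binding site that departs from it would be missed. The PTGES window had none of the TATA, cyclic AMP element, CCAAT, AP-1 or NF-kB letters but 2 GC boxes, 89 and 78 bases before the start. The PTGER4 window held 4 GC boxes, 2 CCAAT boxes and, on both strands of a single stretch 244 bases before the start, the NF-kB pattern. Of the windows for all members in the table, 1 other held a TATA match, a PTGS1 window with the match 208 bases before the start on the opposite strand, and none held an AP-1 match. Over all 35116 promoter windows, 11.5% held a TATA box, 24.6% the cyclic AMP element core, 4.95% an AP-1 site, 45.0% a GC box, 34.6% a CCAAT box, 68.7% an E-box and 11.3% the NF-kB pattern. These matches describe letters in a window, and no binding was measured.

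PTGS2 carried the largest change of the group. The gene (ENSG00000073756) lies on chromosome 1 from 186671791 to 186680922 on the minus strand, and 3.99% of its exonic bases overlap the antisense non-coding RNA PACERR. How reads from that overlap were assigned is not known, because the strand setting of the counting is not given in the sources used here. In Proliferative cells it stood at 3.37, 2.96 and 2.23 CPM, in Sen(IR) at 53.4, 50.4 and 54.3, in Sen(IR+CTPI2) at 38.4, 34.0 and 42.0, and in Sen(IR+UK5099) at 6.83, 8.16 and 8.57. The 4 groups did not overlap and ran in the order Proliferative, Sen(IR+UK5099), Sen(IR+CTPI2), Sen(IR). PTGS2 rose 18.6-fold in Sen(IR) against Proliferative (a log2 change of 4.22 with an SE of 0.12 and an adjusted p of 2.29e-18 in edgeR). With UK5099 it fell 6.70-fold against Sen(IR) (a log2 change of -2.74 with an SE of 0.102 and an adjusted p of 1.25e-15 in edgeR), and it still stood 2.78-fold above Proliferative (a log2 change of 1.47 with an SE of 0.141 and an adjusted p of 3.18e-09 in edgeR).

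With CTPI2 the PTGS2 level was 1.38-fold lower than in Sen(IR). The log2 difference was -0.47 with a 95% interval of -0.65 to -0.28 (edgeR adjusted p = 0.00965), an estimate inside the fold limit, so the gene was not called. Every Sen(IR+CTPI2) library lay below every Sen(IR) library. Over the alternatives run the log2 difference stayed between -0.54 and -0.39, while the adjusted p ranged from 3.18e-06 with no filter on low counts in edgeR, through 0.000256 in DESeq2 and 0.000599 in edgeR on the compared groups alone, to 0.137 in edgeR without Sen(IR+CTPI2) replicate 2. Leaving out Sen(IR) replicate 1, Sen(IR) replicate 3 or Sen(IR+CTPI2) replicate 1 gave adjusted p of 0.0857, 0.0891 and 0.0514 in edgeR. Without Sen(IR+CTPI2) replicate 3 the log2 difference was -0.54 with an adjusted p of 0.00698 in edgeR, past both limits. The drop with UK5099 exceeded that with CTPI2 by a log2 difference of -2.28 (SE 0.103, edgeR adjusted p = 4.79e-14, UK5099 against CTPI2).

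PTGS1, the other cyclooxygenase (ENSG00000095303, chromosome 9, 122370530 to 122395703, plus strand), moved the opposite way with irradiation and the same way with UK5099. Its level was 490, 632 and 537 CPM in Proliferative, 375, 390 and 376 in Sen(IR), 386, 417 and 373 in Sen(IR+CTPI2) and 179, 173 and 174 in Sen(IR+UK5099). The Proliferative libraries were the highest and the Sen(IR+UK5099) libraries the lowest, with no overlap with other groups, while Sen(IR) and Sen(IR+CTPI2) overlapped. The fall in Sen(IR) was 1.45-fold (a log2 change of -0.54 with an SE of 0.067 and an adjusted p of 2.37e-07 in edgeR) and close to the fold limit. It was -0.43 without Proliferative replicate 2 and -0.42 under upper-quartile scaling, short of the limit in both. With UK5099 PTGS1 fell a further 2.17-fold (a log2 change of -1.12 with an SE of 0.0684 and an adjusted p of 8.34e-12 in edgeR). The log2 difference with CTPI2 was 0.04 with a 95% interval of -0.10 to 0.18.

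The cyclooxygenases were then compared per length of exon. Per kilobase of exon, PTGS1 exceeded PTGS2 in every group, at 95.6 against 0.52 CPM per kb in Proliferative and 65.7 against 9.61 in Sen(IR). PTGS2 made up 0.55% ± 0.15 (SD, n = 3) of the summed level of the cyclooxygenases in Proliferative, 12.8% ± 0.66 in Sen(IR), 9.35% ± 1.35 in Sen(IR+CTPI2) and 4.52% ± 0.58 in Sen(IR+UK5099). The ranges of the shares did not overlap, at 12% to 13.2% in Sen(IR), 7.93% to 10.6% in Sen(IR+CTPI2) and 3.86% to 4.94% in Sen(IR+UK5099).

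**Figure D1:**
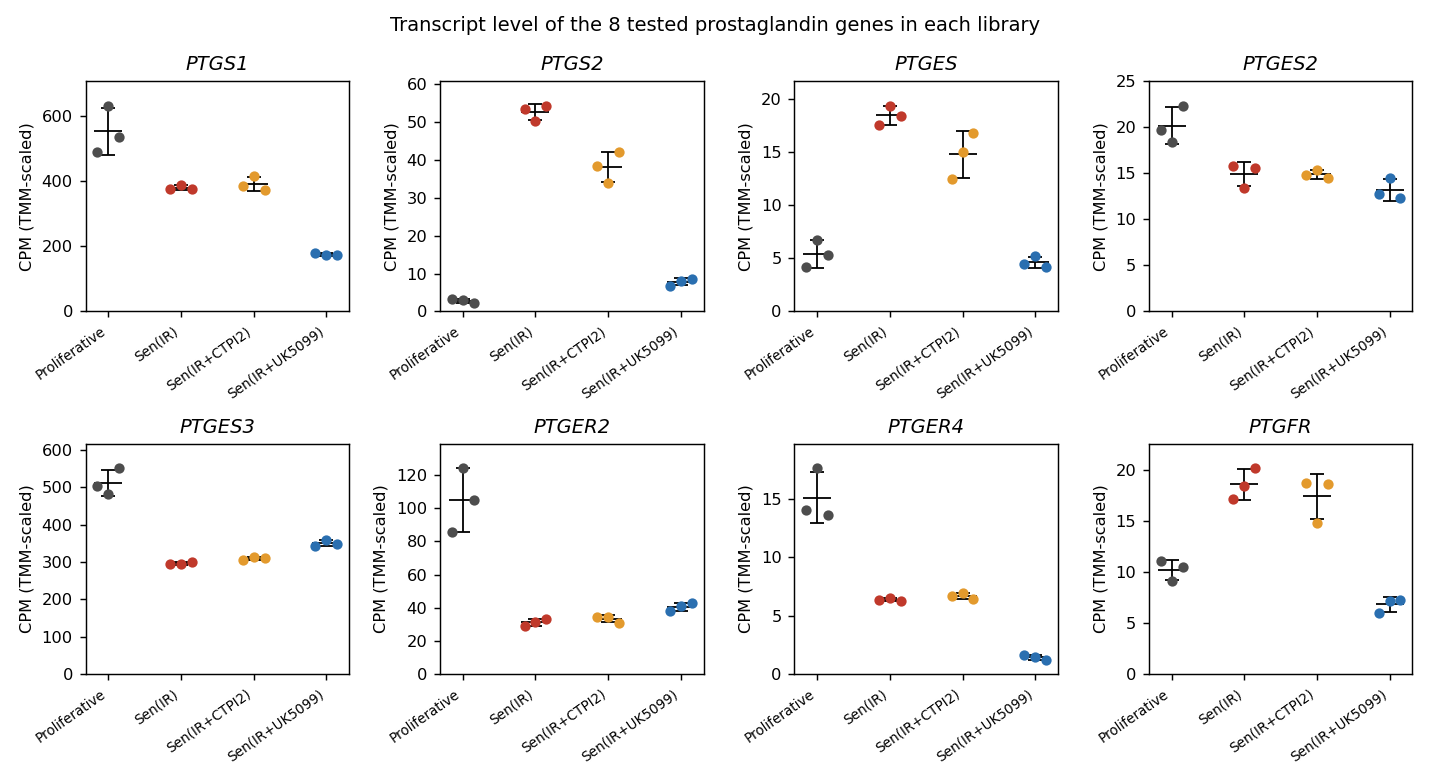
Level of each of the 8 tested prostaglandin genes in CPM (TMM-scaled, linear axis from 0) in the 3 libraries of each group; points are libraries, the horizontal line is the mean and the bar is the SD. PTGS2, PTGES and PTGFR are high in Sen(IR) and low in Sen(IR+UK5099), with PTGS2 at 50.4 to 54.3 CPM in Sen(IR) and 6.83 to 8.57 CPM in Sen(IR+UK5099). PTGS1, PTGES2, PTGES3, PTGER2 and PTGER4 are highest in Proliferative.

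Among the prostaglandin E synthases, the inducible one was the one that rose. PTGES encodes the microsomal synthase that is usually induced together with PTGS2 (ENSG00000148344, chromosome 9, 129738331 to 129753042, minus strand). Its level was 4.18, 6.78 and 5.28 CPM in Proliferative, 17.6, 19.4 and 18.4 in Sen(IR), 12.5, 15.1 and 16.8 in Sen(IR+CTPI2) and 4.43, 5.23 and 4.22 in Sen(IR+UK5099). The Proliferative and Sen(IR+UK5099) libraries overlapped at the bottom, and the Sen(IR) libraries lay above all others. PTGES rose 3.41-fold in Sen(IR) (a log2 change of 1.77 with an SE of 0.139 and an adjusted p of 1.38e-10 in edgeR) and fell 3.98-fold with UK5099 (a log2 change of -1.99 with an SE of 0.141 and an adjusted p of 9.92e-11 in edgeR). Its log2 difference between Sen(IR+UK5099) and Proliferative was -0.22 with a 95% interval of -0.55 to 0.11 (edgeR adjusted p = 0.211). With CTPI2 the log2 difference was -0.32 with an interval of -0.58 to -0.06 (unadjusted p = 0.0181, adjusted p = 0.524 in edgeR), and the libraries did not overlap those of Sen(IR).

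The constitutive synthases PTGES3 and PTGES2 were lower after irradiation, and neither was called with UK5099 against Sen(IR). PTGES3, the cytosolic synthase that is also the HSP90 co-chaperone p23 (ENSG00000110958, chromosome 12, 56663341 to 56688408, minus strand), stood at 504, 482 and 550 CPM in Proliferative, 294, 295 and 301 in Sen(IR), 304, 312 and 310 in Sen(IR+CTPI2) and 342, 358 and 349 in Sen(IR+UK5099). It fell 1.73-fold in Sen(IR) (a log2 change of -0.79 with an SE of 0.0501 and an adjusted p of 3.68e-12 in edgeR). With UK5099 it was 1.18-fold higher than in Sen(IR), with no overlap (log2 difference 0.24, SE 0.05, edgeR adjusted p = 0.000504), under the fold limit. The table also lists 5 PTGES3 pseudogenes, which held 486 counts over all libraries against 105369 for PTGES3, and reads that fit several copies are lost where only uniquely mapped reads are counted.

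PTGES2, a membrane-associated synthase (ENSG00000148334, chromosome 9, 128120693 to 128128462, minus strand), had the narrowest range of group means of the 8 tested genes. It stood at 19.7, 18.4 and 22.3 CPM in Proliferative, 15.8, 13.5 and 15.5 in Sen(IR), 14.8, 15.4 and 14.5 in Sen(IR+CTPI2) and 12.8, 14.5 and 12.3 in Sen(IR+UK5099), so that the irradiated groups overlapped and lay below Proliferative. The log2 difference of Sen(IR) from Proliferative was -0.44 (SE 0.0947, edgeR adjusted p = 0.000324), inside the fold limit. Against Sen(IR) it was -0.18 with UK5099 (95% interval -0.38 to 0.03) and 0.00 with CTPI2 (-0.21 to 0.20). PTGIS, the prostacyclin synthase (ENSG00000124212, chromosome 20, 49503874 to 49568137, minus strand), summed to 3, 5, 4 and 2 counts over the libraries of Proliferative, Sen(IR), Sen(IR+CTPI2) and Sen(IR+UK5099), and no difference was detectable at this depth.

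Of the receptors, the pair that couples prostaglandin E2 to cyclic AMP was lower after irradiation, and the prostaglandin F receptor was higher. PTGER2 encodes the EP2 receptor (ENSG00000125384, chromosome 14, 52314305 to 52328598, plus strand). Its level was 85.4, 124 and 105 CPM in Proliferative, 28.8, 31.5 and 33.2 in Sen(IR), 34.6, 34.7 and 31.1 in Sen(IR+CTPI2) and 37.8, 41.0 and 42.9 in Sen(IR+UK5099). All irradiated libraries lay below the Proliferative ones. PTGER2 fell 3.36-fold in Sen(IR) (a log2 change of -1.75 with an SE of 0.0981 and an adjusted p of 3.87e-13 in edgeR), and its log2 difference between Sen(IR+UK5099) and Sen(IR) was 0.38 (SE 0.101, edgeR adjusted p = 0.00357), under the fold limit. With CTPI2 the difference from Sen(IR) was 0.10 with a 95% interval of -0.11 to 0.32.

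PTGER4 encodes the EP4 receptor (ENSG00000171522, chromosome 5, 40679915 to 40693735, plus strand). It stood at 14.1, 17.6 and 13.6 CPM in Proliferative, 6.36, 6.54 and 6.23 in Sen(IR), 6.67, 6.98 and 6.41 in Sen(IR+CTPI2) and 1.66, 1.45 and 1.24 in Sen(IR+UK5099). Sen(IR) and Sen(IR+CTPI2) overlapped, and the other groups stood apart. PTGER4 fell 2.36-fold in Sen(IR) (a log2 change of -1.24 with an SE of 0.12 and an adjusted p of 4.26e-09 in edgeR) and then a further 4.40-fold with UK5099 (a log2 change of -2.14 with an SE of 0.16 and an adjusted p of 2.56e-10 in edgeR). Together this left it 10.4-fold below Proliferative (a log2 change of -3.38 with an SE of 0.145 and an adjusted p of 2.41e-15 in edgeR). The interval of its log2 difference with CTPI2 was -0.20 to 0.34.

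The EP2 and EP4 receptors separated under UK5099. Per kilobase of exon, PTGER4 made up 9.20% ± 1.00 (SD, n = 3) of the summed level of the pair in Proliferative, 12.5% ± 0.90 in Sen(IR), 12.2% ± 0.36 in Sen(IR+CTPI2) and 2.44% ± 0.49 in Sen(IR+UK5099). Every Sen(IR+UK5099) library, at 1.97% to 2.95%, lay below every library of the other groups, whose lowest share was 8.32%.

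**Figure D2:**
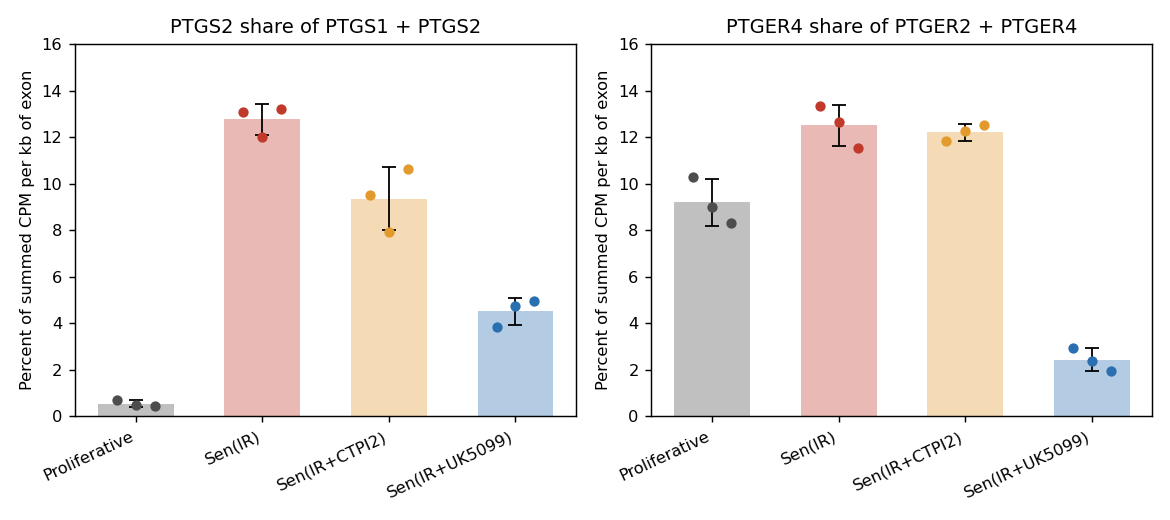
Share of PTGS2 in the summed level of PTGS1 and PTGS2 (left) and of PTGER4 in that of PTGER2 and PTGER4 (right), in percent of CPM per kb of exon; bars are group means from 0, error bars the SD and points the 3 libraries. The PTGS2 share is 12.8% in Sen(IR) and 4.52% in Sen(IR+UK5099), and the PTGER4 share is 12.5% and 2.44%.

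PTGFR, the receptor for prostaglandin F2α (ENSG00000122420, chromosome 1, 78303884 to 78540701, plus strand), behaved like PTGES in direction. Its level was 11, 9.10 and 10.4 CPM in Proliferative, 17.1, 18.4 and 20.1 in Sen(IR), 18.7, 14.8 and 18.6 in Sen(IR+CTPI2) and 6.0, 7.19 and 7.25 in Sen(IR+UK5099). Sen(IR) and Sen(IR+CTPI2) overlapped above Proliferative, and all Sen(IR+UK5099) libraries lay below Proliferative. PTGFR rose 1.82-fold in Sen(IR) (a log2 change of 0.86 with an SE of 0.11 and an adjusted p of 4.05e-07 in edgeR) and fell 2.71-fold with UK5099 (a log2 change of -1.44 with an SE of 0.115 and an adjusted p of 8e-10 in edgeR). Against Proliferative, the level with UK5099 was 1.49-fold lower (a log2 change of -0.58 with an SE of 0.12 and an adjusted p of 0.000173 in edgeR), and this call was lost without Sen(IR+UK5099) replicate 1 (-0.50) and under upper-quartile scaling (-0.44). HPGD, which inactivates prostaglandins (ENSG00000164120, chromosome 4, 174490175 to 174523154, minus strand), had 0 counts in all 12 libraries, which allows a level of up to 0.147 CPM in the shallowest library.

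Counted over the 8 tested genes, 7 were called in Sen(IR) against Proliferative, 3 higher and 4 lower, where 47.2% of all genes tested were called (24.8% higher and 22.4% lower). The libraries of those groups did not overlap for 8 of 8, against 70.9% of all genes. With UK5099 against Sen(IR) 5 of 8 were called, all lower, where 20.8% of all genes were called (8.76% higher and 12.1% lower), and 7 of 8 did not overlap, against 56.6% of all genes. The 5 were PTGS1, PTGS2, PTGES, PTGER4 and PTGFR, and their calls held under each alternative setting and with each single library left out. With CTPI2 against Sen(IR) edgeR called 0 of 8, where 0.166% of all genes were called (0.0185% higher and 0.148% lower), and 3 of 8 did not overlap, against 15.1% of all genes. At an unadjusted p under 0.05 in edgeR and with no fold limit the count was 2, PTGS2 and PTGES, where 1182 of 16251 genes passed. DESeq2 also called 0 of 8, where it called 30 of all genes. Against Sen(IR+CTPI2), the same 5 genes were lower in Sen(IR+UK5099), where 19.9% of all genes were called (8.2% higher and 11.7% lower), and 7 of 8 did not overlap, against 53.6% of all genes. The comparisons with each inhibitor share the Sen(IR) libraries, and those with Proliferative share the Proliferative libraries. The summed level of the fibroblast markers given above was also lower with UK5099, and the markers differed among themselves. From Sen(IR) to Sen(IR+UK5099) the mean of COL1A1 went from 4714 to 1601 CPM, COL1A2 from 7321 to 3519, COL3A1 from 2752 to 819, PDGFRA from 712 to 369, THY1 from 366 to 217 and FAP from 145 to 13.2, whereas DCN stood at 1363 and 1362, LUM at 357 and 370, PDGFRB at 156 and 162 and VIM at 3063 and 2780. Of the genes that mark the arrest state, MKI67 averaged 11 and 0.950 CPM, TOP2A 36.0 and 6.65, LMNB1, a nuclear lamin, 8.24 and 2.51, and CDKN1A 1055 and 1098. The smooth muscle markers stood at 70.1 to 77.0 CPM in Sen(IR) and 37.7 to 40.3 in Sen(IR+UK5099), and the epithelial markers at 0.979 to 1.28 and 1.82 to 2.15 CPM. The mitochondrial share of counts given above was higher in every Sen(IR+UK5099) library than in any Sen(IR) library. The part of these shifts in the falls was not tested.

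Against Proliferative, 7 of 8 genes were called in Sen(IR+UK5099), 1 higher and 6 lower, where 53.1% of all genes were called (26.9% higher and 26.2% lower), and 7 of 8 did not overlap, against 74.5% of all genes. PTGS2 was the gene that stayed higher, and PTGS1 (-1.66), PTGES2 (-0.61), PTGES3 (-0.55), PTGER2 (-1.37), PTGER4 (-3.38) and PTGFR (-0.58) were lower, in log2 units. The calls of PTGES2, PTGES3 and PTGFR were lost under upper-quartile scaling (-0.47, -0.41 and -0.44), and that of PTGES3 also without Proliferative replicate 3 (-0.50). In Sen(IR+CTPI2) 6 of 8 were called, 3 higher and 3 lower, where 46.8% of all genes were called (24.8% higher and 21.9% lower), and 8 of 8 did not overlap, against 70.1% of all genes. The median log2 difference of the 8 genes was -0.49 in Sen(IR) against Proliferative, -1.28 with UK5099 against Sen(IR) and 0.02 with CTPI2 against Sen(IR), while the medians over all genes tested were 0.01, 0.01 and 0.00.

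**Figure D3:**
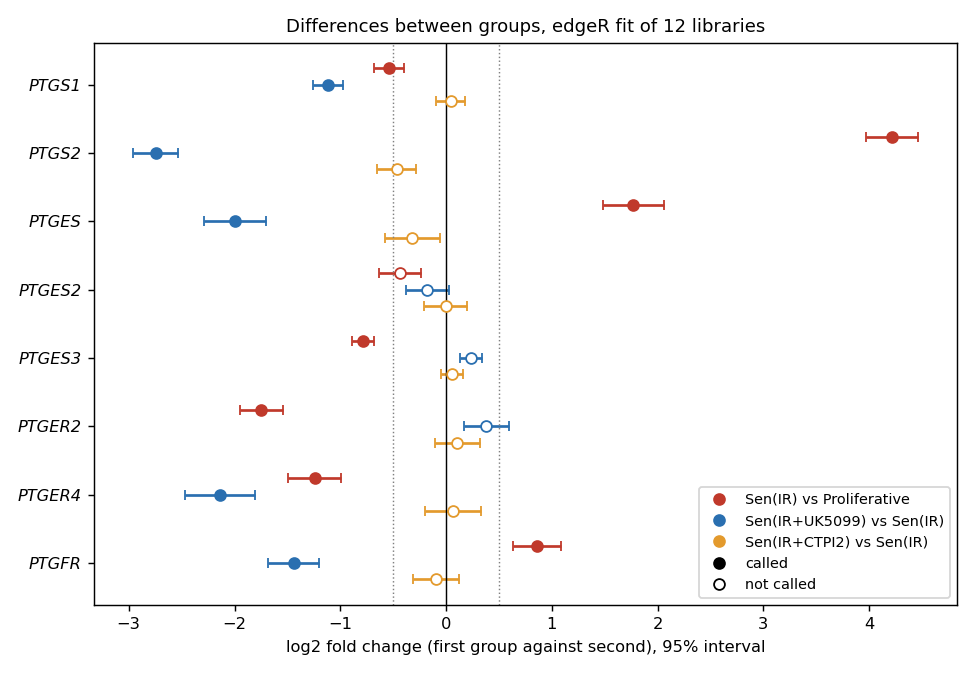
Log2 fold change of each tested gene in 3 comparisons with 95% intervals from the edgeR fit of 12 libraries; filled points were called, open points were not, and dotted lines mark the fold limit of 0.5. PTGS2 spans from 4.22 (Sen(IR) against Proliferative) to -2.74 (Sen(IR+UK5099) against Sen(IR)), and all points of Sen(IR+CTPI2) against Sen(IR) are open.

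Ordered per kilobase of exon, PTGES3, PTGS1 and PTGER2 were the 3 highest of the tested genes in every group. In Proliferative they stood at 151, 95.6 and 42.4 CPM per kb, followed by PTGER4 at 4.26 ± 0.61 (SD, n = 3), PTGES2 at 3.32 ± 0.33, PTGES at 2.86 ± 0.69, PTGFR at 1.77 ± 0.17 and PTGS2 at 0.52 ± 0.10. PTGES2 and PTGES lay within their spread of each other there. In Sen(IR) PTGES (9.77 ± 0.47 CPM per kb) and PTGS2 (9.61 ± 0.38) were indistinguishable and came next after PTGER2 (12.6 ± 0.90), and PTGER4 was the lowest at 1.80 ± 0.04. In Sen(IR+UK5099) PTGER4 was again the lowest, at 0.41 ± 0.06 CPM per kb. With the length of the longest transcript in place of all exons, PTGS2 and PTGES changed places in Sen(IR) and Sen(IR+CTPI2), as did other neighbours among the lower genes, and the 3 highest did not.

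The genes whose pattern over the 12 libraries came closest to each member were found by the smallest root mean square difference of log2 CPM, centred per gene, among 16243 other tested genes. For PTGS2 they were SOD2, the mitochondrial superoxide dismutase, at 0.27, CLDN16 at 0.32 and PARM1 at 0.32 (log2 units). SOD2 averaged 200 CPM in Proliferative, 3450 in Sen(IR), 2932 in Sen(IR+CTPI2) and 401 in Sen(IR+UK5099). CLDN16 and PARM1 averaged only 0.178 and 0.247 CPM in Proliferative, and CLDN16 0.423 CPM in Sen(IR+UK5099). These levels are close to that of 3 counts per library, so the likeness of CLDN16 and PARM1 to PTGS2 rests there on few counts. For PTGES the nearest were NR4A2 (0.16), an orphan nuclear receptor whose gene is a classical target of cyclic AMP signalling, TLR3 (0.21) and PDPN (0.22). For PTGS1 they were COL5A2 (0.09), BGN (0.10), both matrix genes, and VWA5A (0.11). For PTGER4 they were CDCP1 (0.17), TMEM158 (0.23) and AREG (0.23), which encodes an EGF receptor ligand. PTGFR lay nearest to PAQR5 (0.12), FGF2 (0.13) and LOX (0.13), the lysyl oxidase that crosslinks collagen. PTGER2 lay nearest to SYTL2 (0.14), SMC3 (0.15) and EMP2 (0.16), PTGES2 to RPA2 (0.05), ARPC4 (0.06) and ORC5 (0.06), and PTGES3 to EMD (0.04), SEPTIN10 (0.05) and RPS6 (0.06). These values are descriptions of likeness across libraries that share their groups.

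The surrounding pathway was described with 7 lists of other genes. Upstream, 12 of 16 listed genes of arachidonate supply were tested. In Sen(IR) against Proliferative 5 rose and 1 fell, with a median log2 difference of 0.32, a share called near the 47.2% of all genes (24.8% higher and 22.4% lower). The rises included PLA2G4C, a phospholipase A2, from 0.202 ± 0.108 to 7.66 ± 0.588 CPM (SD, n = 3, with at most 7 counts in a Proliferative library; a log2 change of 5.2, SE 0.24), and ACSL4, which activates arachidonate for storage in phospholipids (2.19), PLA2G6 (1.44) and PLA2G4A (1.42), the cytosolic phospholipase A2 that releases it for prostaglandin synthesis. LPCAT3 also rose (0.58), and MGLL, the lipase that frees arachidonate from an endocannabinoid, fell by 0.88 on the log2 scale. Adding UK5099 left 0 higher and 4 lower than in Sen(IR), with a median of -0.10, namely ACSL4 (-0.90), MGLL (-0.71), PLA2G4C (-0.65) and PLA2G4A (-0.64), where 20.8% of all genes were called (8.76% higher and 12.1% lower). The lists that follow are read against the same shares over all genes.

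Of the other prostanoid synthases, 9 of 10 were tested. In Sen(IR) 5 rose and 0 fell, with a median of 0.83, where 47.2% of all genes were called and 24.8% were higher. The 5 were PTGDS, a prostaglandin D synthase (1.81), AKR1B1, which has prostaglandin F synthase activity (1.72), GSTM2 (1.24), AKR1C3 (1.19) and TBXAS1, the thromboxane synthase (0.83). Under UK5099, AKR1B1 (-1.33) and TBXAS1 (-0.94) fell and AKR1C3 rose (1.14), with a median of 0.13, where 20.8% of all genes were called. AKR1B1 averaged 145 CPM in Proliferative, 479 in Sen(IR) and 190 in Sen(IR+UK5099).

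Of the other receptors and partners, 7 of 9 were tested. In Sen(IR) PTGFRN, a membrane protein that regulates the prostaglandin F receptor, rose (2.45) and PTGDR2 fell by 0.96 on the log2 scale, with a median of -0.35, where 47.2% of all genes were called. Compared with Sen(IR), UK5099-treated cells had more PTGFRN (0.54), and PTGIR, the prostacyclin receptor, fell by 1.83 on the log2 scale from 1.96 to 0.547 CPM. PTGDR2 also fell, to at most 2 counts in a library, and is named here after its values were seen because its level is under the minimum set for named genes. Of all genes 20.8% were called in that comparison. The median of the list was 0.06, also with PTGDR2 set to the level of 3 counts per library.

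Of the transport and breakdown genes, 8 of 10 were tested. In Sen(IR) 6 rose and 1 fell, with a median of 0.88, where 47.2% of all genes were called and 24.8% were higher. The largest rises were those of AKR1C1 (2.05) and AKR1C2 (1.29), PTGR2, a prostaglandin reductase (0.92), and ABCC4, a transporter that exports prostaglandin E2 (0.84). PTGR1, another reductase, fell by 0.63 on the log2 scale. AKR1C1 (1.07) and AKR1C2 (1.05) rose further with UK5099, with 0 genes lower and a median of 0.39, where 20.8% of all genes were called and 8.76% were higher. AKR1C1 was also the only gene of the 7 lists called with CTPI2 (0.52, SE 0.0654, edgeR adjusted p = 9.89e-05), where 0.166% of all genes were called. The AKR1C genes are similar in sequence, and reads that fit several of them are lost where only uniquely mapped reads are counted. The levels of AKR1C1, AKR1C2 and AKR1C3 are therefore less certain.

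In the parallel lipoxygenase and leukotriene branch only 4 of 13 listed genes passed the filter. In Sen(IR) 3 rose and 0 fell, with a median of 0.86, where 47.2% of all genes were called and 24.8% were higher. The 3 were LTB4R (0.87), LTA4H, which makes leukotriene B4 (0.85), and LTB4R2 (1.20). LTB4R and LTB4R2, both leukotriene B4 receptors, are neighbours with overlapping transcripts, so the split of reads between them is uncertain. Between Sen(IR+UK5099) and Sen(IR), edgeR called 0 of the 4, where 20.8% of all genes were called. LTA4H, the 1 gene with an unadjusted p under 0.05, had a log2 difference of 0.31 and an adjusted p of 9.84e-05 in edgeR, under the fold limit.

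Downstream of the EP2 and EP4 receptors, 19 of 20 genes of the cyclic AMP arm were tested. In Sen(IR) 4 rose and 6 fell, with a median of 0.02, a share called near the 47.2% of all genes. The target genes NR4A1, NR4A2 and NR4A3 did not move together: NR4A2 rose (1.76), NR4A3 rose (1.54) and NR4A1 fell by 1.67 on the log2 scale, and the phosphodiesterase gene PDE4D fell by 1.76. With UK5099 against Sen(IR) 1 gene rose and 4 fell, with a median of -0.17, where 20.8% of all genes were called. All 3 NR4A genes were among those that fell (NR4A2 -2.08, NR4A3 -1.16, NR4A1 -0.69) together with PDE7B (-0.75). The gene that rose was ADCY9, an adenylyl cyclase (0.63).

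All 12 regulators of PTGS2 mRNA decay were tested. Most of them encode RNA-binding proteins of the kind that act on AU-rich elements in PTGS2 and similar messages, and the list also holds the kinase MAPKAPK2 and the nuclear import receptor TNPO1. In Sen(IR) 0 rose and 6 fell, with a median of -0.47, a share called near the 47.2% of all genes, of which 22.4% were lower. The largest falls were those of HNRNPD (-1.92), RBM3 (-1.33), KHSRP (-0.98) and ELAVL1 (-0.76). HNRNPD and KHSRP promote decay of such messages, and ELAVL1 stabilises them. With UK5099 against Sen(IR) 2 rose and 2 fell, with a median of 0.01, where 20.8% of all genes were called. The rises were ZFP36 (0.97), which encodes tristetraprolin, a protein that destabilises PTGS2 mRNA, from 17.0 to 33.3 CPM, and its relative ZFP36L2 (0.62), and the falls were CELF2 (-0.62) and RBM3 (-0.52).

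**Figure D4:**
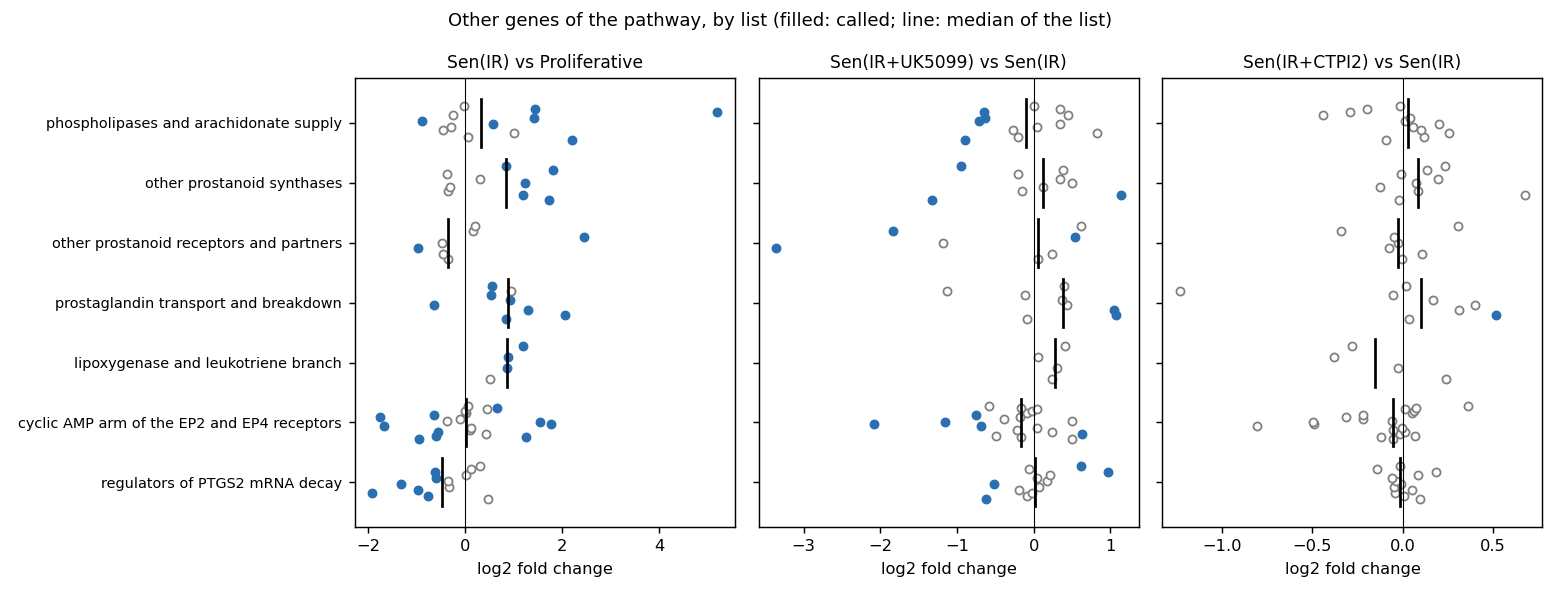
Log2 fold change of the tested genes of 7 pathway lists in 3 comparisons; filled points were called, open points were not, and the black line is the median of the list. In Sen(IR) against Proliferative the regulators of PTGS2 mRNA decay have a median of -0.47 and the transport and breakdown genes 0.88, and in Sen(IR+CTPI2) against Sen(IR) 1 point, AKR1C1, is filled.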

How the data were processed

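RNA of 12 MRC5 libraries was sequenced as paired ends. Per the labels and methods, the authors used Trimmomatic 0.36 for trimming, STAR 2.5.2b for alignment on GRCh38 and featureCounts of Subread 1.5.2 for counting reads in exons per gene. The annotation release and strand setting are not given in the sources used here. The deposited values are raw counts per gene, without normalization, and 0 columns belonged to other samples. Samples were grouped by their labels.

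The test was edgeR 4.0.16 (filterByExpr, TMM, quasi-likelihood) under R 4.3.3, as 1 fit of 12 libraries in 4 groups, giving 6 comparisons. The Benjamini-Hochberg adjustment covered 16251 genes. Calls needed an adjusted p under 0.05 and an absolute log2 fold change over 0.5. Levels per kb used the union of exons in GENCODE v44, and promoters came from RefSeq (GRCh38.p14). Scripts were tested on simulated data. Genes named from the pathway lists were, per list and comparison, up to 4 called genes with the largest change and a mean log2 CPM above 0. LPCAT3, MGLL, TBXAS1, PTGR1, LTB4R2 and PTGDR2 in Sen(IR) against Proliferative, and PTGDR2 and ADCY9 with UK5099 against Sen(IR), fall outside that rule and were named after their values were seen. Members and lists were chosen with earlier results of these data known. The alternatives were DESeq2 1.42.0, other scalings, fold limits, filters and p limits, fits of only the compared groups, a replicate block and leaving out each library.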

Additional observations from a re-analysis of the deposited data

How the results depend on the processing

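Of 768 values of single genes recomputed under alternatives, 734 kept their direction and side of the limits, 14 passed a limit they had missed, 15 no longer passed and 5 changed sign. The 5 concerned differences between Sen(IR+CTPI2) and Sen(IR) close to 0, with each library left out in turn: PTGES2 (-0.073 to 0.039), PTGS1 (-0.0022 to 0.080) and PTGFR (-0.15 to 0.0094). With a fold limit of 1, 4 of the 8 prostaglandin genes were called in Sen(IR) against Proliferative and 4 in Sen(IR+UK5099) against Proliferative. Of all 16251 genes, 4030 and 4967 were called in those comparisons at that limit. Upper-quartile scaling moved the median of all genes by 0.12 in Sen(IR), 0.14 in Sen(IR+UK5099) and 0.11 in Sen(IR+CTPI2) against Proliferative. It also left 4 of the 8 called in Sen(IR+UK5099) against Proliferative, where 8679 of all 16251 genes were called. The calls of PTGES2 (-0.47), PTGES3 (-0.41) and PTGFR (-0.44) were lost in that comparison. PTGES3 was also lost there without Proliferative replicate 3 (-0.50). In Sen(IR+CTPI2) against Sen(IR) 1 was called with no fold limit, where 79 of all genes were called. With each library left out 0 to 1 was called, where 15 to 21 of all genes were. PTGS1 in Sen(IR+CTPI2) against Proliferative (-0.50) lay at the limit and was called without Proliferative replicate 1 or 3 or Sen(IR+CTPI2) replicate 2. PTGS1 was also called there with no filter on low counts (-0.50) and with no fold limit. PTGES2 was called in that comparison without Proliferative replicate 2 (-0.50) and with no fold limit.

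Over all genes, a fold limit of 1 gave 4030 calls in place of 7677 in Sen(IR) against Proliferative, 1511 in place of 3386 in Sen(IR+UK5099) against Sen(IR), 1417 in place of 3236 in Sen(IR+UK5099) against Sen(IR+CTPI2), 4967 in place of 8632 in Sen(IR+UK5099) against Proliferative, 4028 in place of 7599 in Sen(IR+CTPI2) against Proliferative and 11 in place of 27 in Sen(IR+CTPI2) against Sen(IR). With no fold limit the counts were 7384, 7227 and 79 in Sen(IR+UK5099) against Sen(IR), Sen(IR+UK5099) against Sen(IR+CTPI2) and Sen(IR+CTPI2) against Sen(IR). The last comparison also gave 296 at an unadjusted p in edgeR, 230 at an unadjusted p in DESeq2, 46 with no filter and 15 to 21 with each library left out, where 15 was the count when Sen(IR+CTPI2) replicate 2 was dropped and 16 when Sen(IR) replicate 3 was. A higher or absent fold limit changes a count by construction, and the cause of the other changes was not tested.

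Same-numbered libraries of different groups did not deviate together (r from -0.05 to 0.04 over 18 pairs), and a library was best matched by its own number in 10 of 36 checks. With the replicate number as a block, the genes called numbered 7649 in Sen(IR), 8605 in Sen(IR+UK5099) and 7549 in Sen(IR+CTPI2) against Proliferative, 3360 with UK5099 and 25 with CTPI2 against Sen(IR), and 3204 between the inhibitors, and the counts of prostaglandin genes stayed at 7, 7, 6, 5, 0 and 5 in that order. Among the 10 genes only HPGD and PTGIS did not pass the filter on low counts.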
